A study of Mus musculus with 16 samples.

Results

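Mural cells wrap the endothelial tube of brain vessels: pericytes sit on capillaries, and vascular smooth muscle cells form the contractile coat of arterioles and larger vessels. Pericytes are recruited by endothelial PDGF-B through the receptor PDGFRβ, and smooth muscle cells depend on endothelial Notch ligands and the receptor NOTCH3. They help keep the blood-brain barrier and set vessel tone. The 10 genes described here are widely used markers of these cells, and they were taken by symbol from the 39017 genes of the deposited table: *Pdgfrb*, *Notch3* and *Cspg4* at the cell surface, *Rgs5* and *Vtn* of pericytes, the ATP-sensitive potassium channel genes *Kcnj8* and *Abcc9*, and the contractile genes *Acta2*, *Myh11* and *Tagln*. Each of the 10 symbols had 1 row, and all 10 had a mean normalized value of at least 10 over the libraries and were tested among 14814 genes.

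The libraries came from 13-week-old male C57BL/6JRcc mice, either WT or knock-in mice (Mutant, homozygous by the study's methods) whose N-cadherin gene *Cdh2* carries the H150Y substitution made with CRISPR/Cas9. There were 16 poly-A RNA-seq libraries, 4 WT and 4 Mutant from the prefrontal cortex (PFC) and 4 WT and 4 Mutant from the ventral midbrain (vMB). All animals had been through behavioral tests and were perfused with PBS and then formaldehyde, and 1 hemisphere was frozen and micro-dissected. The study kept mutant mice of 2 founder lines. The sources used here give neither the founder line behind a Mutant library nor the animal behind any library, so a p-value covers the spread among the libraries at hand and nothing wider. The sample titles carry bracketed codes of unstated meaning, and 2 codes recur in the PFC and vMB of WT and 2 others in those of Mutant mice, so some PFC and vMB libraries may share an animal. With the code as a correlated block, the numbers of these genes called were the same in all 5 comparisons. The correlation estimated within a code was -0.0196, so that fit was nearly the main one. It cannot show whether shared animals matter.

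The deposited values of a library summed to 8.69 M at the lowest, with a median of 9.44 M. Divided by the library's most frequent low value, taken as a single read, they gave an approximate depth of 7.74 M to 11.3 M reads assigned to genes. That depth is uncertain, because not all low values were whole multiples of this step. The dissected vMB carried a marker of its dopamine neurons: *Slc6a3*, the dopamine transporter, was 7.90 higher on the log2 scale in WT vMB than in WT PFC. In the PFC, the normalized value of *Cdh2* was 1053 ± 104.5 in WT and 635 ± 112 in Mutant libraries (SD, n = 4), and in the vMB it was 1117 ± 27.5 and 829 ± 287. Over both tissues it was lower in Mutant libraries by a log2 change of -0.62 (SE 0.13, limma adjusted p = 0.00418). It passed in neither tissue alone (limma adjusted p = 0.0745 in the PFC and 0.107 in the vMB). A substitution leaves the transcript in place, so this level does not check the labels. In the vMB, Mutant libraries 1 and 2 had *Cdh2* values of 1109.7 and 1042.7, at or near the WT range of 1081.9 to 1148.4, and Mutant libraries 3 and 4 had 590.0 and 573.5. The summed values of 5 red blood cell genes ranged from 721.7 to 4400 over the libraries.

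RefSeq start sites were at hand for 7 of the 10 genes. Upstream sequence is shown for the members that the comparisons turn on: *Notch3* and *Abcc9*, which passed a test, *Cspg4*, which varied together with *Notch3*, and *Acta2*, whose fitted difference was the largest. It was taken from RefSeq (GRCm38.p6) within the 250 bases before the start site and is printed 5′ to 3′ on the gene's strand. Bases that GENCODE places in an exon were left out, except in *Acta2*. There 217 of the 250 bases lie in a GENCODE exon, and only a pair of 30-base sites is shown, both within these exon bases. Capitals mark GGGCGG on either strand (a GC box, the core bound by SP1) in *Notch3*, *Cspg4* and *Abcc9*, the overlapping TGGGAA (the core bound by RBPJ, the effector of Notch) and GGAATG (the core bound by TEAD factors) in *Abcc9*, and in *Acta2* the elements that differ at 1 base from a CArG box, the site of serum response factor.
Notch3 (chr17:32166891-32167140, minus strand): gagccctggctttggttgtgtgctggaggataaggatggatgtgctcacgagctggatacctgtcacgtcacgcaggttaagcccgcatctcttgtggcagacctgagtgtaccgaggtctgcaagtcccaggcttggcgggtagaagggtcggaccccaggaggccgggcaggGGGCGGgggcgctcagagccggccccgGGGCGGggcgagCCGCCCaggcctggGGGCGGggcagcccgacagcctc
Cspg4 (chr9:56864854-56865032, plus strand): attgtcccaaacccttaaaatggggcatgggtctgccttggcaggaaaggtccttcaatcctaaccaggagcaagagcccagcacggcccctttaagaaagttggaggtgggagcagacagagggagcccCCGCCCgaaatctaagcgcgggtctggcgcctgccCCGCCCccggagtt
Abcc9 (chr6:142702316-142702524, minus strand): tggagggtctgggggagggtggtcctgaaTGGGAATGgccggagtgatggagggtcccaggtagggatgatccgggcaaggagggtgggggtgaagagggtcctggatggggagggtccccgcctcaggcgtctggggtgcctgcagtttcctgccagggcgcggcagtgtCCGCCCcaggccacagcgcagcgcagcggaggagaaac
Acta2 (chr19:34255438-34255467, minus strand): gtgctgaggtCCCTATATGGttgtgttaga
Acta2 (chr19:34255388-34255417, minus strand): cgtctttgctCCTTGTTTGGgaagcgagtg

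Each motif was searched on both strands of the 250 bases before the start of 32851 RefSeq promoters. GGGCGG was found in 32.7% of all promoters and in 3 of the 7 members (*Notch3*, *Cspg4* and *Abcc9*). *Notch3* held 4 copies of it and *Cspg4* held 2. TGGGAA was found in 21.6% of all promoters and GGAATG in 12.6%, each in 3 of the 7 members (*Acta2*, *Abcc9* and *Vtn*). The exact CArG box was found in 1.47% of all promoters and in 0 of the 7 members. A form was also searched in which up to 1 of the inner bases, between the CC and the GG, was a C or G. It was found in 8.59% of all promoters and in *Acta2* alone of the 7, in 2 copies. In *Acta2* the second copy overlaps TGGGAA.

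The members lie on 8 chromosomes. In the GENCODE vM21 annotation of GRCm38 they are *Pdgfrb* (ENSMUSG00000024620, chr18:61045150-61085061), *Notch3* (ENSMUSG00000038146, chr17:32120820-32166852), *Cspg4* (ENSMUSG00000032911, chr9:56865033-56899870), *Rgs5* (ENSMUSG00000026678, chr1:169655501-169695813) and *Vtn* (ENSMUSG00000017344, chr11:78499091-78502324). The channel genes *Kcnj8* (ENSMUSG00000030247, chr6:142564837-142571614) and *Abcc9* (ENSMUSG00000030249, chr6:142587862-142702315) are neighbours on the same strand. The contractile genes are *Acta2* (ENSMUSG00000035783, chr19:34241090-34255590), *Myh11* (ENSMUSG00000018830, chr16:14194535-14291372) and *Tagln* (ENSMUSG00000032085, chr9:45929619-45936058). The summed exon length runs from 1.99 kb in *Tagln* to 11.9 kb in *Cspg4*. Other annotated genes, chiefly *Gm48529* and *Pcsk7*, cover 67.9% of the exon bases of *Tagln*, so its value is uncertain. *Notch3* shares 6.03% of its exon bases with *Gm17276*, and *Acta2* shares no stretch of 60 bases with any other annotated transcript.

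Levels were compared between genes per kilobase of exon. *Vtn*, a secreted adhesion protein that pericytes make in the brain, and *Rgs5*, a regulator of G-protein signalling, had the highest levels in all 4 groups. In vMB WT libraries *Vtn* had a normalized value of 295 ± 58.8 per kb (SD, n = 4) and *Rgs5* one of 224 ± 24.2 per kb. *Tagln* (42.5 ± 6.29 per kb), *Acta2* (41.7 ± 12.1 per kb), *Pdgfrb* (29.1 ± 2.47 per kb) and *Notch3* (24.7 ± 3.82 per kb) followed. The lowest levels were those of *Kcnj8*, *Cspg4*, *Abcc9* and *Myh11*, from 15.7 ± 2.72 down to 6.86 ± 3.19 per kb. In that order the ranges of mean ± SD of neighbouring genes overlapped, except between *Rgs5* and *Tagln* and between *Notch3* and *Kcnj8*. *Myh11*, the smooth muscle myosin heavy chain, had the lowest mean level per kb in each of the 4 groups, from 3.56 to 9.55 per kb.

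**Figure D1:**
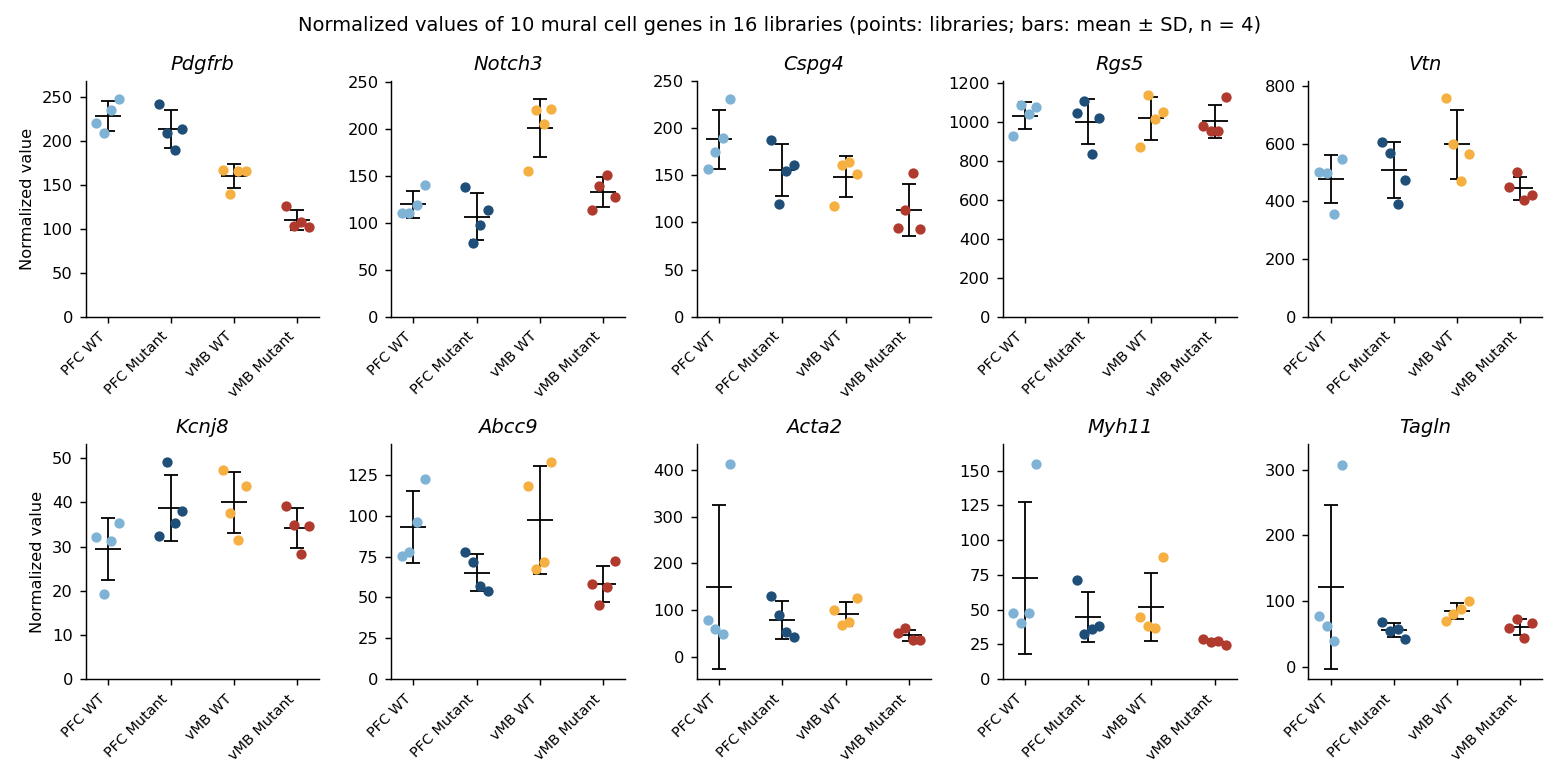
DESeq2-normalized values of the 10 genes in the 4 groups, 1 panel per gene. Points are libraries in replicate order and black bars are the mean ± SD (n = 4). *Pdgfrb* and *Notch3* in vMB Mutant libraries lie below all vMB WT libraries, and 1 PFC WT library stands far above the others for *Acta2*, *Myh11* and *Tagln*.

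The regional comparison asked how the 10 genes differ between the PFC and the vMB of WT mice. *Pdgfrb*, the PDGF-B receptor of pericytes, was lower in the vMB, and *Notch3*, the Notch receptor of smooth muscle cells and pericytes, was higher there. *Pdgfrb* had normalized values of 220.4, 208.0, 235.2 and 247.4 in PFC WT and of 166.5, 138.9, 165.6 and 165.9 in vMB WT libraries. The groups did not overlap, and the log2 difference was -0.51 (SE 0.10, limma adjusted p = 3.84e-04). *Notch3* had 109.6, 109.7, 118.2 and 140.3 in PFC WT and 155.2, 219.9, 204.3 and 220.9 in vMB WT libraries. It did not overlap either, with a log2 difference of 0.73 (SE 0.16, limma adjusted p = 8.20e-04). So 1 of the 10 genes was called lower in the vMB, where 21.6% of all tested genes were, and 1 was called higher, where 22% of them were. For *Rgs5* the log2 difference was -0.02 with a 95% confidence interval from -0.22 to 0.18. The remaining 7 genes did not pass. The median log2 difference of the 10 genes, -0.04, and the signs of *Acta2*, *Myh11* and *Tagln* rested on PFC WT 4: without it the median was 0.29 and these genes had log2 differences of 0.54, 0.11 and 0.54.

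In the vMB, mural transcripts were compared between Mutant and WT mice. *Pdgfrb* and *Notch3* were lower in Mutant mice, with log2 changes of -0.54 and -0.58, and the other 8 genes did not pass the test. The 2 genes called lower among 10 stand beside 2.02% of all tested genes called lower and 1.23% called higher. A call here means a limma adjusted p of at most 0.05 over the 14814 genes and a fold change of at least 1.3. All 10 fitted log2 changes were below 0, with a median of -0.51, while the median over all tested genes was -0.01 and 51.1% of them were below 0. The smallest of the 10, that of *Rgs5* (-0.02), was 0.0062 with upper quartile scaling and 0.014 with the trend on exon length removed. Each Mutant library lay below each WT library for 4 of the 10 genes (*Pdgfrb*, *Notch3*, *Acta2* and *Myh11*), as it did for 7.56% of all tested genes. In bulk tissue, fewer cells of a type and less RNA per cell cannot be told apart.

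*Pdgfrb* had normalized values of 166.5, 138.9, 165.6 and 165.9 in vMB WT and of 126.1, 102.7, 107.4 and 101.5 in vMB Mutant libraries. WT library 2 was the lowest of its group, and it still lay above the highest Mutant library, number 1. The means were 159.2 ± 13.6 and 109.4 ± 11.4 (SD, n = 4), with a log2 change of -0.54 (SE 0.10, limma adjusted p = 0.00751) and an exact permutation p of 0.0286, the smallest that 4 against 4 libraries allow. *Notch3* had 155.2, 219.9, 204.3 and 220.9 in WT and 113.6, 139.3, 150.6 and 127.1 in Mutant libraries. Here WT library 1 came close to Mutant library 3. The means were 200.1 ± 30.9 and 132.6 ± 15.9 (SD, n = 4), with a log2 change of -0.58 (SE 0.16, limma adjusted p = 0.0375). The call of *Pdgfrb* was made without each of the 16 libraries in turn. That of *Notch3* was lost without vMB WT 2, 3 or 4 or without vMB Mutant 1, 2 or 4, at adjusted p values from 0.0676 to 0.131, though its log2 change stayed between -0.70 and -0.51. It was also lost when vMB Mutant 1 and 2, the libraries with *Cdh2* near the WT range, were left out together, a choice made after seeing the data, and that of *Pdgfrb* was not.

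*Acta2* and *Myh11* had the largest fitted differences with all libraries included, and the contractile genes had the widest standard errors. *Acta2*, smooth muscle α-actin, had values of 100.3, 67.2, 73.5 and 125.1 in vMB WT and of 50.9, 60.7, 36.1 and 36.6 in vMB Mutant libraries. The groups did not overlap (exact permutation p = 0.0286), but the log2 change of -0.97 (SE 0.50) did not pass in the model (limma adjusted p = 0.286), whose spread is shared with the PFC. It passed when only the 8 vMB libraries were fitted (adjusted p = 0.0308). *Myh11* had 44.5, 38.6, 37.2 and 88.2 in WT and 29.2, 26.8, 27.4 and 24.7 in Mutant libraries. WT library 4 stood apart, and the other WT libraries also lay above all Mutant libraries (log2 change -0.83, SE 0.36, limma adjusted p = 0.193). Without WT library 4 its log2 change was -0.55, near those of *Abcc9* (-0.53) and *Pdgfrb* (-0.52) in the same fit. *Tagln*, transgelin, an actin-binding protein of smooth muscle, overlapped between the groups, with 84.4 ± 12.5 in WT and 60.4 ± 12.4 in Mutant libraries (SD, n = 4, log2 change -0.49, SE 0.41).

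Of the pericyte genes, *Vtn* had values of 758.6, 597.4, 472.0 and 565.8 in vMB WT and of 450.5, 500.1, 406.4 and 423.2 in vMB Mutant libraries. One Mutant library, number 2, reached into the WT range, and the log2 change of -0.41 (SE 0.16) did not pass (limma adjusted p = 0.128). *Cspg4*, the NG2 proteoglycan of pericytes and oligodendrocyte precursors, had 148.7 ± 21.6 and 113.3 ± 27.5 (SD, n = 4), a log2 change of -0.41 (SE 0.17, limma adjusted p = 0.177). The markers of oligodendrocyte precursors, which also carry NG2, had a median log2 change of -0.04 in the vMB, with 0 of the 8 tested called. Their changes ran from -0.26 to 0.17, and 6 of the 8 were below 0. The part of these cells in the value of *Cspg4* was not tested. *Rgs5* stood at 872.1, 1136.6, 1013.3 and 1049.2 in WT and at 976.7, 950.8, 952.7 and 1129.7 in Mutant libraries. These ranges overlapped almost wholly, and the 95% confidence interval of its log2 change (-0.02) ran from -0.22 to 0.18.

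*Kcnj8* and *Abcc9* encode the pore and the sulfonylurea receptor of the vascular ATP-sensitive potassium channel. *Abcc9* had values of 118.3, 67.2, 71.9 and 132.8 in vMB WT and of 58.1, 45.6, 56.5 and 72.3 in vMB Mutant libraries. WT libraries 2 and 3 lay just below the highest Mutant library, while WT libraries 1 and 4 were far above it, and the log2 change of -0.69 (SE 0.22) did not pass (limma adjusted p = 0.0731). It passed without vMB WT 2 (adjusted p = 0.0479). *Kcnj8* had 40.0 ± 6.93 in WT and 34.3 ± 4.54 in Mutant libraries (SD, n = 4), a log2 change of -0.21 (SE 0.21). Of their relatives, *Abcc8*, the sulfonylurea receptor found in neurons and islet cells, was called lower, from 249.1 ± 32.7 to 182.8 ± 20.9 (SD, n = 4, log2 change -0.44, SE 0.12, limma adjusted p = 0.0316). *Kcnj11*, its pore partner, did not pass (log2 change -0.12, SE 0.16).

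**Figure D2:**
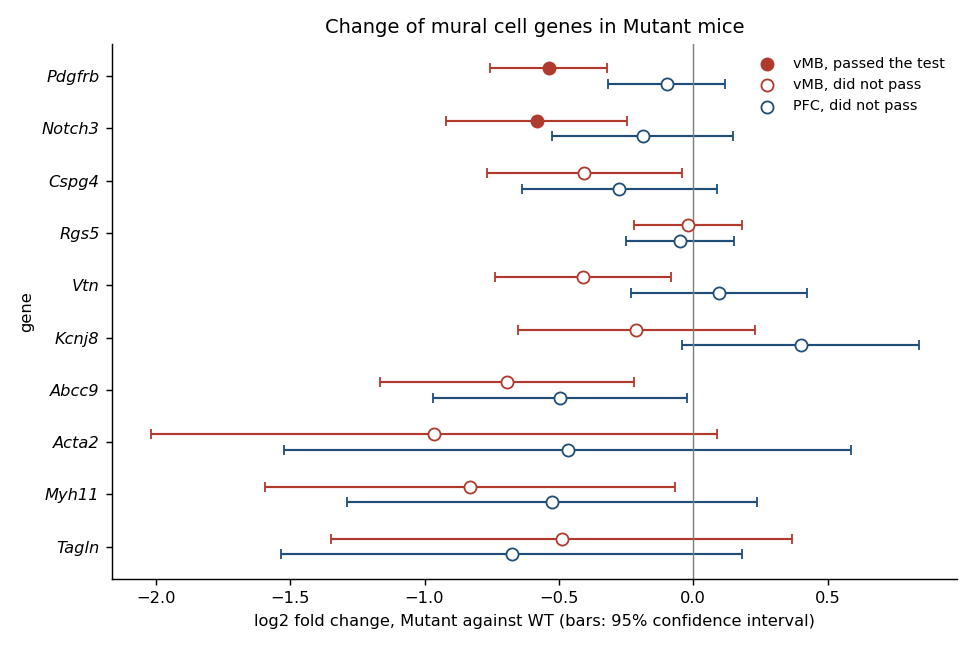
Log2 fold change of each gene in Mutant against WT mice (horizontal axis) in the vMB (red) and the PFC (blue), with 95% confidence intervals from the limma model over 16 libraries. Filled points passed the test: *Pdgfrb* (-0.54) and *Notch3* (-0.58) in the vMB. The contractile genes have the widest intervals and *Rgs5* the narrowest.

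Relative to WT, longer transcripts had lower values in Mutant libraries of both tissues, and several of these genes are long. Gene-centred log2 values were regressed on log2 exon length in each library, and the slope was 0.00771 ± 0.0284 in vMB WT and -0.0926 ± 0.0312 in vMB Mutant libraries (SD, n = 4). With each library's trend on length removed, *Pdgfrb* (5.48 kb) was still called lower, at a log2 change of -0.48 (limma adjusted p = 0.023). *Notch3* (8.09 kb) had -0.46 and lost its call (adjusted p = 0.137), and the short genes *Acta2* and *Vtn* had -1.06 and -0.51. *Cspg4* (11.9 kb), the longest member, had -0.24 in place of -0.41. In the PFC the slope was 0.0846 ± 0.0200 in WT and 0.000279 ± 0.0265 in Mutant libraries (SD, n = 4). There, removing the trend gave log2 changes of -0.12 for *Cspg4* and -0.093 for *Notch3*, in place of -0.28 and -0.19.

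In the PFC, 0 of the 10 genes passed the test of Mutant against WT mice, where 0.142% of all tested genes were called in either direction, and 1 member (*Abcc9*) had an unadjusted limma p under 0.05. The unadjusted p was under 0.05 for 2532 of the 14814 tested genes. The median log2 change of the 10 genes was -0.23, against -0.01 over all tested genes, and it was -0.066 without PFC WT 4 and -0.11 with the trend on exon length removed. No member was without overlap. Over all genes every Mutant library lay below every WT library for 3.79% and above for 4.23%. *Pdgfrb* had values of 220.4, 208.0, 235.2 and 247.4 in PFC WT and of 241.0, 208.3, 189.5 and 212.9 in PFC Mutant libraries. The groups overlapped, and the 95% confidence interval of the log2 change (-0.10) ran from -0.32 to 0.12. *Abcc9* had 75.3, 78.0, 96.2 and 122.7 in WT and 77.8, 71.8, 57.3 and 53.8 in Mutant libraries. It overlapped through Mutant library 1 alone (log2 change -0.50, SE 0.22, limma adjusted p = 0.267). *Kcnj8* had the largest upward value, 29.5 ± 7.08 in WT and 38.7 ± 7.38 in Mutant libraries (SD, n = 4, log2 change 0.40, SE 0.21, limma adjusted p = 0.344), which was 0.21 without PFC WT 2. *Notch3* (-0.19), *Cspg4* (-0.28), *Vtn* (0.10) and *Rgs5* (-0.05) had smaller fitted log2 changes, none of which passed.

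The PFC values of the contractile genes were dominated by the library PFC WT 4. *Acta2* had values of 77.5, 58.8, 48.7 and 412.7 in PFC WT and of 130.8, 88.2, 51.8 and 41.5 in PFC Mutant libraries. *Tagln* had 76.4, 62.2, 39.4 and 307.7 in WT and 67.4, 54.4, 57.3 and 41.5 in Mutant libraries. In PFC WT 4, *Acta2* stood at 6.69 times, *Tagln* at 5.19 times and *Myh11* at 3.41 times the mean of the other PFC WT libraries, whereas *Pdgfrb* stood at 1.12 and *Rgs5* at 1.06 times. The summed value of 18 endothelial markers (5627) and of 12 fibroblast markers (1376) was also highest there among PFC WT libraries, whose medians were 4528 and 910. The same held for other lists, among them astrocyte (21500) and microglia (4790) markers, with medians of 19550 and 4257. The sums of neuron, oligodendrocyte, oligodendrocyte precursor and choroid plexus markers were highest in other PFC WT libraries. The part of any of these cells in the contractile values was not tested. Without this library the PFC log2 changes of *Acta2*, *Myh11* and *Tagln* were 0.22, -0.09 and -0.07 in place of -0.47, -0.52 and -0.68.

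**Figure D3:**
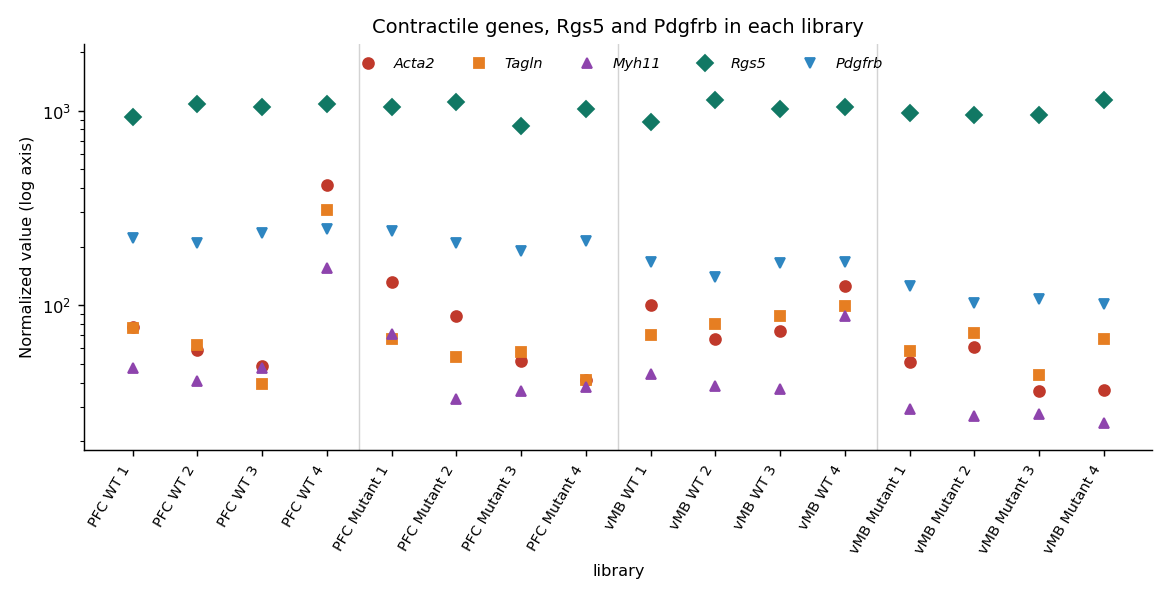
DESeq2-normalized values (log axis) of *Acta2*, *Tagln*, *Myh11*, *Rgs5* and *Pdgfrb* in each of the 16 libraries, with vertical lines between groups. The contractile genes stand high together in PFC WT 4, at 412.7, 307.7 and 154.5, while *Rgs5* stays between 834.9 and 1136.6 in all libraries.

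Over both tissues together, as the mean of the PFC and vMB changes, *Abcc9* and *Notch3* were lower in Mutant mice. *Abcc9* had a log2 change of -0.59 (SE 0.16, limma adjusted p = 0.0194) and *Notch3* one of -0.39 (SE 0.11, limma adjusted p = 0.0318). These are 2 of 10 genes, beside 1.64% of all tested genes called lower and 0.945% called higher. *Pdgfrb* had an adjusted p of 0.00852 but a fold of 1.25, under the minimum of 1.3. Removing the trend on length ended both calls (log2 changes of -0.48 and -0.28), and so did leaving out vMB Mutant 1 and 2 together. That of *Abcc9* was made without each single library. That of *Notch3* was lost without PFC WT 4 (limma adjusted p = 0.0655), PFC Mutant 2 or 3, vMB WT 2, 3 or 4, or vMB Mutant 1 or 4. *Cspg4* was called as well without vMB WT 1 or vMB Mutant 3.

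Whether the change differed between the tissues was tested as the vMB change minus the PFC change. None of the 10 genes passed, and 0 of all tested genes did (0%), although 864 genes had an unadjusted limma p under 0.05. Among these were *Pdgfrb*, with a log2 difference of -0.44 (SE 0.15, unadjusted p = 0.00783 and adjusted p = 0.739 in limma), and *Vtn*, with -0.51 (SE 0.22, unadjusted p = 0.0343 and adjusted p = 0.836). The lower values of *Pdgfrb* and *Notch3* in the vMB were thus not shown to be particular to that tissue.

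Within groups the 10 genes did not vary as a unit. The deviation of each library from its group mean on the log2 scale was correlated between genes over the 16 libraries, as a description without a test, since the points share libraries and their depth. The median Pearson r of the 45 gene pairs was 0.28, and 0.08 without PFC WT 4. The contractile genes varied together: r was 0.89 for *Acta2* and *Tagln*, 0.86 for *Acta2* and *Myh11* and 0.76 for *Myh11* and *Tagln*. Without PFC WT 4 these values were 0.63, 0.64 and 0.31. *Notch3* and *Cspg4* had an r of 0.88, which was 0.87 without PFC WT 4 and 0.88 with the trend on length removed. *Kcnj8* went against *Cspg4* (r = -0.45) and *Notch3* (r = -0.37). *Rgs5* had no r above 0.26 with any other member. The summed values of *Acta2*, *Myh11* and *Tagln* came to between 0.113 and 0.813 of the value of *Rgs5* in the same library.

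**Figure D4:**
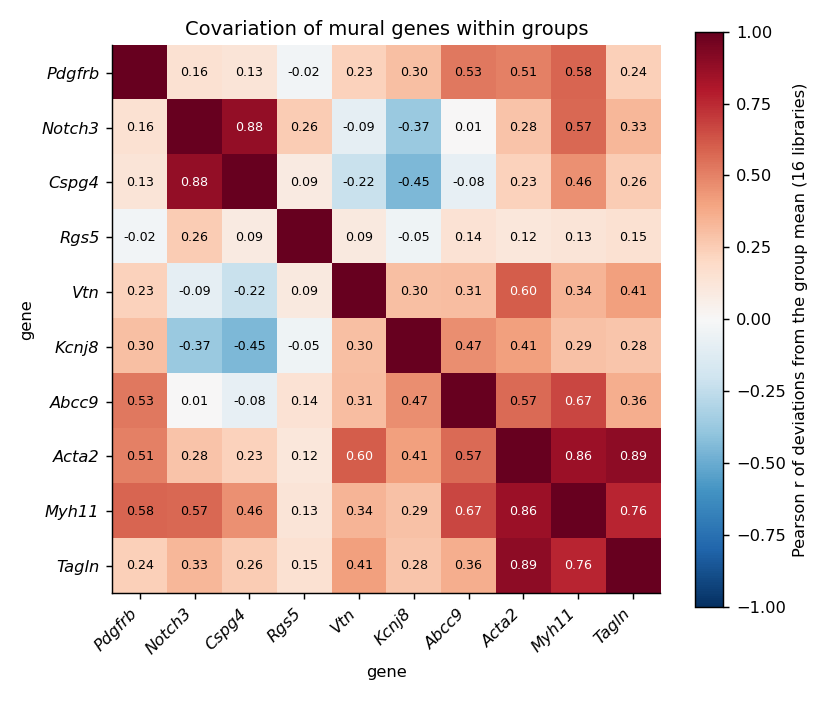
Pearson r between the within-group deviations (log2 value minus group mean) of each pair of the 10 genes over 16 libraries. The block of *Acta2*, *Myh11* and *Tagln* (0.76 to 0.89) and the pair *Notch3* and *Cspg4* (0.88) stand out, and *Rgs5* stays at or below 0.26 with every other gene.

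The genes outside the list whose deviations followed the mean deviation of the 10 members most closely over the 16 libraries were *Esam* (r = 0.90), *Rab3il1* (0.89), *Lamb2* (0.87), *Myl9* (0.87), *Crhr1* (0.85), *Alox8* (0.85), *Epn3* (0.84) and *Mad2l2* (0.84). Members and unnamed gene models were left out of this ranking of the 14814 tested genes. *Esam* is an endothelial adhesion molecule, *Lamb2* a laminin chain of vascular basement membrane and *Myl9* a regulatory light chain of smooth muscle myosin. *Esam* and *Myl9* are in the lists used here, and *Lamb2*, *Rab3il1*, *Crhr1*, *Alox8*, *Epn3* and *Mad2l2* are in none of them. Without PFC WT 4, r was 0.75 for *Esam*, 0.88 for *Rab3il1*, 0.83 for *Lamb2*, 0.54 for *Myl9*, 0.77 for *Crhr1*, 0.67 for *Alox8*, 0.52 for *Epn3* and 0.59 for *Mad2l2*. None of these 8 genes passed the test in the vMB (log2 changes from -0.45 to 0.19) or the PFC.

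Other genes of the same cells and pathways were read from lists. Of 20 other pericyte genes, 0 passed in the vMB and 0 in the PFC, and their median log2 changes were -0.13 and -0.18. In the vMB these changes ran from -0.63 to 0.36, and 13 of the 20 were below 0, beside 51.1% of all tested genes. Of 19 other smooth muscle genes, 16 were tested, 0 passed in either tissue, and the medians were -0.16 and -0.12. Their vMB changes ran from -0.64 to 0.29, and 10 of the 16 were below 0. The part of mural cells in the values of either list was not tested. *Cnn1*, *Actg2* and *Myocd*, a calponin, an actin and a coactivator of smooth muscle, were under the minimum mean. *Pdgfb*, the endothelial ligand of PDGFRβ, had 113.8 ± 25.3 in vMB WT and 116.4 ± 19.8 in vMB Mutant libraries (SD, n = 4, log2 change 0.04, SE 0.16), and 0 of 5 PDGF genes passed. *Jag1*, a Notch ligand of endothelial and smooth muscle cells, had a log2 change of -0.34 (SE 0.27, limma adjusted p = 0.533). *Jag2*, another Notch ligand, had one of -0.31 (SE 0.08, limma adjusted p = 0.0377), under the fold minimum of 1.3. Of 21 Notch pathway genes, 0 passed. The integrins that can bind vitronectin (0 of 6 tested) and the other actin genes (0 of 3 tested) held no call in the vMB.

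Markers of other cell types were set beside these values. In the vMB, 4 of 18 endothelial markers were called lower and 0 higher, beside 2.02% and 1.23% of all tested genes. The trend on exon length was not removed for these lists. Called were *Cdh5* (log2 change -0.80, SE 0.17), the cadherin of endothelial junctions, *Tek* (-0.77, SE 0.18), the angiopoietin receptor, *Pecam1* (-0.64, SE 0.17), an adhesion molecule, and *Flt1* (-0.59, SE 0.16), a VEGF receptor, at limma adjusted p values from 0.0123 to 0.0373. Their list had a median log2 change of -0.39. The summed endothelial value of a library ran from 3819 to 5434 in vMB WT and from 3664 to 4523 in vMB Mutant libraries, and none of the 18 was at 0 in any library. Of 12 meningeal and vascular fibroblast markers 0 were called, with a median of -0.27 and summed values of 1682 to 2151 in WT and 1357 to 1925 in Mutant libraries. The part of either cell type in the values of the 10 genes was not tested.

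Of the remaining markers in the vMB, 1 microglial gene was called, *P2ry12*, which was higher (log2 change 0.38, SE 0.11, limma adjusted p = 0.0443). None of the tested neuronal, astrocyte, oligodendrocyte, red blood cell or choroid plexus markers was called, and their median log2 changes were 0.06, 0.01, 0.14, -0.23 and 0.38. In the PFC none of these lists held a called gene.

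**Figure D5:**
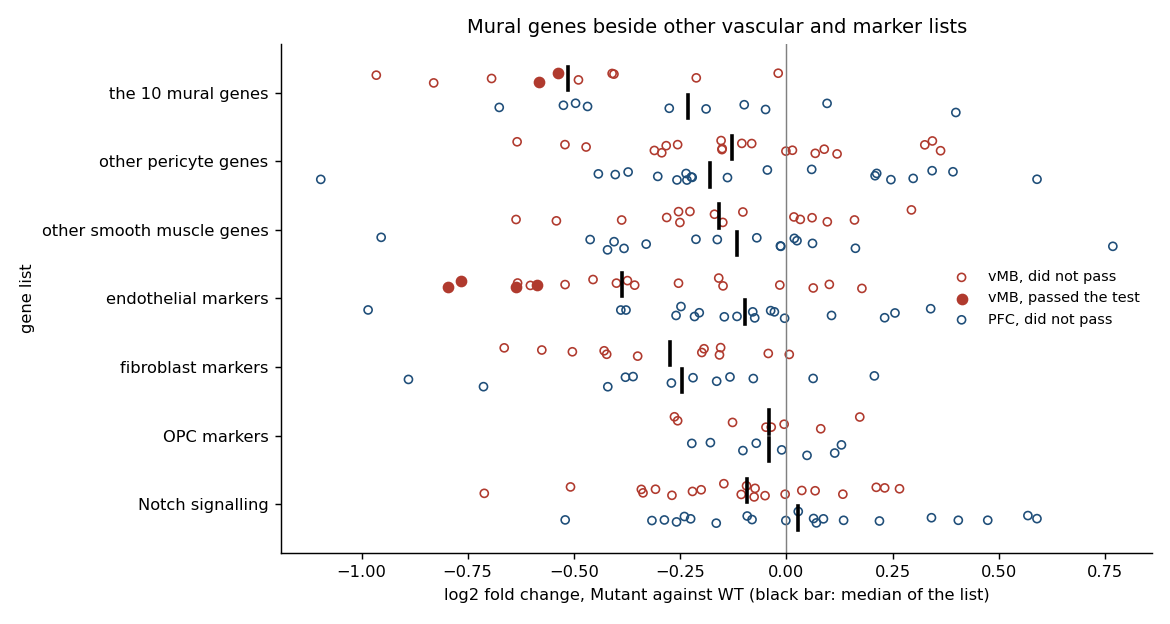
Log2 fold change of single genes in Mutant against WT mice (horizontal axis), by list, in the vMB (red) and the PFC (blue). Filled points passed the test and black bars are list medians, which in the vMB are -0.51 for the 10 genes, -0.13 for other pericyte genes, -0.16 for other smooth muscle genes and -0.39 for endothelial markers.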

How the data were processed

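Upstream, the authors used Cutadapt 1.8.3 for trimming, TopHat 2.0.10 for alignment and HTSeq 0.6.1p1 for gene counts. The deposited values are a signal that the authors normalized with DESeq2, on a linear scale. The methods name a human genome while the identifiers are of mouse genes, so the build behind the values is not known. The authors' p-values, adjusted p-values, fold changes and pass marks are in the same table and were not used. Between 67.0% and 69.4% of a library's values under 20 lay within 0.05 of a whole multiple of its step (its most frequent low value), so no count test was run.

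Here 1 was added to each value and log2 taken, and 14814 genes with a mean of at least 10 were fitted with limma 3.58.1 in R 4.3.3 (4 groups, 16 libraries, mean-variance trend, two-sided, Benjamini-Hochberg over all tested genes). A fold change is therefore on the log2(value + 1) scale. For the members and *Cdh2*, the difference of means was set against all 70 splits of 8 libraries in an exact permutation test. Exon lengths are unions of GENCODE vM21 exons, known for 99% of tested genes. The fit was tested on data simulated with independent normal noise and no added trend on exon length. In the vMB comparison it found 59 of 100 genes changed 1.5-fold and 78 of 100 changed 2-fold, with 5 false calls.

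The members, the lists and the tests were chosen with earlier results of these data known. Named are all 10 members, of each list the genes called in a single tissue, the partners *Pdgfb*, *Jag1*, *Kcnj11* and *Abcc8*, the targeted gene *Cdh2*, and the 8 genes nearest to the mean deviation of the members. *Slc6a3*, *Jag2* and the genes under the minimum mean were named after their values were seen. The alternatives were other pseudocounts, filters, scalings, variance models, fold minima and blocks, the trend on exon length, and libraries left out.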

Additional observations from a re-analysis of the deposited data

Results flagged for a closer look

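In a group of 4 libraries, a library was picked out where its gap to the nearest other library, as a share of the group's range, exceeded Dixon's 95% critical value. This held in 7 of the 40 groups tested (10 genes in 4 groups), where chance picks about 1 in 20. The same library, PFC WT 4, was picked for *Acta2* (412.7), *Myh11* (154.5) and *Tagln* (307.7). *Myh11* was also picked in PFC Mutant 1 (71.2) and in vMB WT 4 (88.2). *Pdgfrb* was picked for its low value in vMB WT 2 (138.9), which works against its difference from the Mutant group, and *Rgs5* for its high value in vMB Mutant 4 (1129.7).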

How the results depend on the processing

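The number of the 10 genes called in the vMB (2) was 1 with no filter on low values, with no mean-variance trend and with the trend on exon length removed, and 0 at a fold of at least 1.5. It ran from 1 to 2 with single libraries left out. Over both tissues (2) it was 1 with a pseudocount of 5, with no filter, with upper quartile scaling or at a fold of 1.5, 0 with the length trend removed (with or without the replicate block), and 1 to 3 with single libraries left out. Between WT tissues (2) it was 1 at a fold of 1.5 and 2 to 4 with single libraries left out, the 4 without vMB WT 3, where *Kcnj8* and *Vtn* also passed. In the PFC and between the tissues' changes it was 0 throughout. As alternatives chosen after seeing the data, vMB Mutant 1 and 2, or PFC WT 4 and vMB WT 4, were left out together. Each gave 1 call in the vMB (*Pdgfrb*) and 0 over both tissues. The median log2 change in the vMB stayed between -0.55 and -0.47.

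Over all genes, upper quartile scaling gave 241 lower and 258 higher calls in the vMB in place of 299 and 182, and 185 and 217 over both tissues in place of 243 and 140, where quantile normalization gave 209 and 183. With the trend on length removed, the vMB counts were 63 and 70. Without vMB WT 4 they were 118 and 45, and without vMB Mutant 4 they were 118 and 52. The causes were not tested.

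The correlations of deviations between libraries of the same replicate number lay between -0.132 and 0.0873. With 4 libraries a group, such values cannot show whether these libraries share an animal. With the replicate block, 2 genes were called in the vMB, *Pdgfrb* (adjusted p = 0.00965) and *Vtn* (0.0278), and *Notch3* had an adjusted p of 0.0519 in limma. With the length trend also removed they were *Pdgfrb* and *Vtn*.

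*Rgs5* crossed 0 most often. Its log2 change in the vMB was 0.0062 with upper quartile scaling, 0.014 with the length trend removed (with or without the replicate block) and 0.034 without vMB Mutant 1 and 2, and ran from -0.091 to 0.036 with single libraries left out. The same ranges were -0.0995 to 0.0358 in the PFC, -0.070 to 0.0083 over both tissues and -0.055 to 0.085 between the tissues' changes. Between WT tissues *Rgs5* had 0.030 with upper quartile scaling and 0.11 with quantile normalization, and -0.079 to 0.048 with single libraries left out, and *Abcc9* had -0.037 with quantile normalization and -0.14 to 0.19. With single libraries left out, *Acta2* ran from -0.80 to 0.22 and *Vtn* from -0.038 to 0.22 in the PFC, *Tagln* from -0.42 to 0.56 between the tissues' changes, and *Acta2* from -0.48 to 0.54, *Myh11* from -0.61 to 0.11 and *Tagln* from -0.44 to 0.54 between WT tissues. Without PFC WT 4 and vMB WT 4 together, *Acta2* had 0.22 in the PFC and 0.38 between WT tissues, and *Tagln* -0.33 between the tissues' changes and 0.46 between WT tissues.

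With 4 libraries a group, a gene that did not pass is not shown to be unchanged. Counting error at low values, as for *Kcnj8* and *Myh11*, is part of the spread.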
